A study of Homo sapiens with 6 samples.

Results

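The genes described are 8 genes of cellular iron uptake and storage, chosen by name but with earlier results of these data known: TFRC, TFR2, STEAP3, FTH1, FTL, NCOA4, IREB2 and ACO1. All 8 had exactly 1 row in each of the 3 deposited tables, which hold 16938 rows for CTR and CEBPA, 14956 for CTR and P30 and 16843 for CEBPA and P30. The RNA came from K562, a human chronic myeloid leukemia line that keeps some traits of red cell precursors, carrying a PiggyBac transposon with a Tet-inducible cassette. CTR cells carried the empty vector, CEBPA cells wild-type C/EBPα, a transcription factor of granulocyte differentiation, and P30 cells its shorter p30 isoform, which can still bind DNA but has lost the transactivation domain at the N-terminus. All 3 groups, controls included, received 200 ng/ml doxycycline for 48 h, and no uninduced sample was analysed here. There were 2 biological replicates in each group, but the deposited tables give 1 FPKM (sequenced fragments scaled to transcript length and to the number of mapped fragments) per gene and group, pooled over both. These values leave no spread between replicates and no depth per sample, so every difference given here is a description without error, test or replicate check. The paper itself tested the 3 pairs with the program Cuffdiff and reported a high correlation between replicates. Its calls for single genes were not used here. The paper's methods describe a first and a second sequencing run, on different instruments and with different read lengths. Libraries of the second run were prepared at an outside institute. How the runs map to the replicates is not stated there, so a pooled value may join unlike libraries. Whether each cell line was a clone or a pool of cells is not given in the sources used here.

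Cells take up most of their iron as transferrin. The transferrin receptor, encoded by TFRC, carries iron-loaded transferrin into endosomes, where the reductase STEAP3 turns ferric into ferrous iron so that it can leave for the cytosol. TFR2 encodes a second transferrin receptor, found mainly in liver and erythroid cells, where it serves as a sensor of transferrin saturation and is a partner of the erythropoietin receptor. Iron that is not used at once is stored in ferritin, a shell of heavy chains (FTH1), which oxidize iron, and light chains (FTL), which help it to mineralize. NCOA4 is the receptor that delivers ferritin to the lysosome, where the stored iron is set free again. The iron regulatory proteins, encoded by ACO1 and IREB2, bind stem-loops called iron-responsive elements when iron is scarce. They block the translation of ferritin from elements in the 5′ UTR, and they protect the TFRC mRNA from decay through elements in the 3′ UTR. Developing red cells need this system at high capacity because most of their iron goes into heme.

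Matches to the pattern of these stem-loops in the 8 mRNAs are printed before the levels, because they separate ferritin and TFRC from the other members. A match is a description of sequence, and binding was not measured. UTRs of protein coding Gencode transcripts on GRCh37, the build of the authors' alignment (hg19), were searched on the transcript strand for C, 5 bases, CAGTGN with a last base other than G, and 5 bases able to pair with the first 5, G with T included. Of 19794 genes searched, 141 (0.712%) held a match in a UTR, 28 (0.142%) in the 5′ UTR and 113 (0.571%) in the 3′ UTR. Among the 8 genes, FTH1 and FTL had 1 match each in the 5′ UTR and TFRC had 4 in the 3′ UTR. Each is shown 5′ to 3′ as DNA letters read from the reference, with the bulged C and the 6-base loop in capitals.
FTH1, chr11:61735046-61735074, minus strand: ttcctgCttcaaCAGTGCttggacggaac
FTL, chr19:49468592-49468620, plus strand: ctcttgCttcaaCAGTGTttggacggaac
TFRC 1, chr3:195777850-195777878, minus strand: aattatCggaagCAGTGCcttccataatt
TFRC 2, chr3:195777446-195777474, minus strand: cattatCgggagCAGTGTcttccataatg
TFRC 3, chr3:195777381-195777409, minus strand: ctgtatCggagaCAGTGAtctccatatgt
TFRC 4, chr3:195777334-195777362, minus strand: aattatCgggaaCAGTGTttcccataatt

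The FTH1 and FTL elements were identical at 26 of 29 bases, and the 5 bases on each side of the loop were the same in both. The 4 TFRC elements lay within 545 bp and shared 18 to 25 of 29 bases with one another. FTH1 and TFRC elements had 9 to 11 of 29 bases in common, including the bulged C and the first 5 bases of the loop, which the search required. TFR2, STEAP3, NCOA4, IREB2 and ACO1 had no match, which says only that these letters were not in the annotated UTRs.

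The FPKM of the 8 genes ran from 4.64 (STEAP3 in CEBPA) to 3271 (FTL in P30). The order from highest to lowest in both CTR and P30 was FTL, FTH1, NCOA4, TFRC, TFR2, IREB2, ACO1 and STEAP3. In CEBPA the order was the same except that TFR2 stood below IREB2 and ACO1. Without replicate values it cannot be said whether close neighbours in this order, such as IREB2 and ACO1, differed beyond their error.

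**Figure D1:**
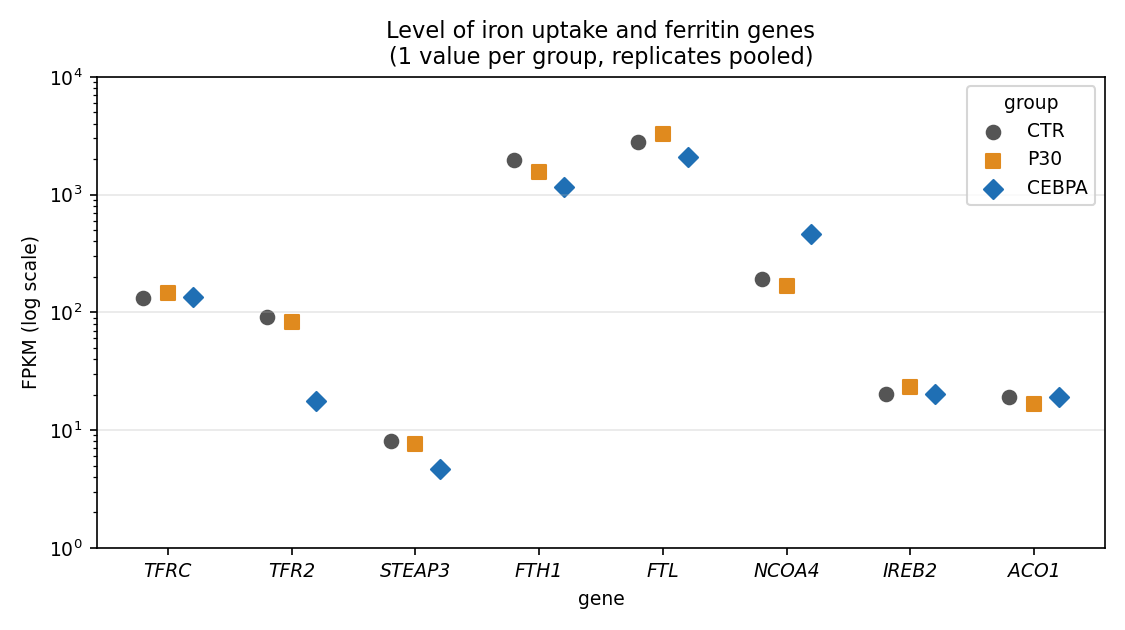
FPKM of the 8 genes on a log axis, with 1 point per gene and group (gray circles CTR, orange squares P30, blue diamonds CEBPA) and no error bars because the replicates were pooled. TFR2 lay at 90.5 and 83.4 FPKM in CTR and P30 and at 17.6 in CEBPA, NCOA4 was highest in CEBPA at 467, and the 3 points of TFRC almost coincided.

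The wild-type factor was set against the empty vector first. On the log2(FPKM + 1) scale, which understates the change of low genes, CEBPA differed from CTR at least 2-fold in 2 of the 8 genes, TFR2 lower and NCOA4 higher. Both ferritin chains and STEAP3 were lower by smaller amounts, and TFRC, IREB2 and ACO1 stood at the same level in both groups. For comparison, among the 13673 genes with over 1 FPKM in CTR or CEBPA, 14.0% were at least 2-fold higher in CEBPA and 6.92% at least 2-fold lower. The 1 of 8 genes past 2-fold in each direction is near this background. The median log2 change was -0.21 over the 8 genes and -0.01 over all genes tested.

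TFRC had an FPKM of 133 in CTR, 145 in P30 and 134 in CEBPA. The log2 change of TFRC was 0.01 when CEBPA and 0.12 when P30 was compared with CTR. The gene thus had the narrowest range of the 8 genes over the 3 groups, 0.12 on the log2 scale, and 94.1% of 13006 genes listed in all 3 tables had a range as wide or wider.

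TFR2 had an FPKM of 90.5 in CTR, 83.4 in P30 and 17.6 in CEBPA. The CEBPA level was apart from the other groups, which lay close together. CEBPA and CTR differed by -2.30 and P30 and CTR by -0.12 on the log2(FPKM + 1) scale. In plain FPKM the CTR level was 5.14 times that of CEBPA. Of the 13673 genes tested in CEBPA vs CTR, TFR2 had the 51st most negative change, and 3.58% changed as much in either direction. In the order of all rows TFR2 went from rank 1168 in CTR to rank 5575 in CEBPA.

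The TFR2 to TFRC ratio, which compares 2 levels per length within a group, was 0.679 in CTR, 0.573 in P30 and 0.131 in CEBPA. TFR2 thus made up 40.4% of the summed FPKM of both receptors in CTR, 36.4% in P30 and 11.6% in CEBPA. The sum itself, in FPKM, was 224 in CTR, 229 in P30 and 152 in CEBPA, so that the lower sum in CEBPA came from TFR2.

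The erythroid markers, like TFR2, were lowest in CEBPA. The 5 of 9 erythroid markers with a row (GATA1, KLF1, HBG1, EPOR and TAL1) all exceeded 1 FPKM in every group, and their summed FPKM was 1330.5 in CTR, 809 in P30 and 523 in CEBPA. HBG1, a fetal globin, made up most of each sum, with 872, 410.4 and 389 FPKM. GATA1 was slightly higher in P30 than in CTR, with 185, 193 and 53.1 FPKM, whereas KLF1, HBG1, EPOR and TAL1 were lower in P30. EPOR, the receptor partner of TFR2, had 42.2, 30.8 and 12.9 FPKM in this order. The 8 of 12 granulocyte markers with a row had a summed FPKM of 9.53 in CTR, 42.9 in P30 and 8421 in CEBPA, and none was listed at 0. S100A8, at 3731 FPKM, and S100A9, at 4623, carried the CEBPA sum. CSF3R and LTF were also highest in CEBPA, at 58.99 and 2.28 FPKM. AZU1 and ITGAM, with 2.54 and 2.59 FPKM in CTR, were slightly lower in CEBPA but highest in P30, at 4.32 and 14.3 FPKM. ITGAM was the largest part of the P30 sum, and its log2 change in P30 vs CTR was 2.09. PRTN3 and MMP9 stayed below 1 FPKM in every group. The 7 of 8 monocyte and macrophage markers with a row summed to 551, 630 and 2216 FPKM. The higher CEBPA sum came from LYZ, with 45.5, 47.6 and 1781 FPKM, whereas CD68 was lowest in CEBPA, with 505, 579.5 and 430.0 FPKM. The 6 of 10 markers of other cells with a row, with EPCAM the highest, summed to 46.9, 60.8 and 28.9 FPKM. In bulk RNA fewer cells of a type and less RNA per cell cannot be told apart, and the part of these markers in the TFR2 difference was not tested.

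STEAP3 was the lowest of the 8 genes in all 3 groups, with an FPKM of 8.06 in CTR, 7.55 in P30 and 4.64 in CEBPA. Against CTR, the log2 change was -0.68 in CEBPA, which 36.2% of all genes tested reached in size, and -0.08 in P30. The TFRC level was 16.6 times that of STEAP3 in CTR, 19.3 times in P30 and 28.9 times in CEBPA.

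FTH1, the heavy chain, had an FPKM of 1955 in CTR, 1566 in P30 and 1154 in CEBPA. FTL, the light chain, had an FPKM of 2774 in CTR, 3271 in P30 and 2072 in CEBPA. Both chains were lowest in CEBPA, whereas P30 lay below CTR for FTH1 and above it for FTL. Between CEBPA and CTR the log2 change was -0.76 for FTH1 and -0.42 for FTL, and 31.6% and 56.3% of all genes tested changed as much. These mRNAs were among the most abundant of the cells. FTL held rank 24 of 16938 rows in CTR and FTH1 rank 54.

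Together FTH1 and FTL had an FPKM of 4729 in CTR, 4837 in P30 and 3226 in CEBPA, or 0.717%, 0.724% and 0.529% of the summed FPKM of all rows. The FTH1 to FTL ratio was 0.705 in CTR, 0.479 in P30 and 0.557 in CEBPA, so that the light chain exceeded the heavy chain in each group. Ferritin has many processed pseudogenes that can share reads with the parent genes. The 3 pseudogenes with a row here (FTH1P16, FTH1P23 and FTLP12) did not exceed 1.95 FPKM in any group, and how reads that match several copies were split is not given in the sources used here. BEST1, which overlaps FTH1 on the other strand, had an FPKM of 0.737 in CTR, 0.403 in P30 and 3.32 in CEBPA.

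NCOA4 had an FPKM of 193 in CTR, 166 in P30 and 467 in CEBPA. It was the only one of the 8 genes that was at least 2-fold higher in CEBPA than in either of the other groups, 2.42 times CTR and 2.81 times P30. Against CTR, the log2 change was 1.27 in CEBPA, which 13.2% of all genes tested reached in size, and -0.22 in P30. The level of FTH1 plus FTL was 24.5 times that of NCOA4 in CTR, 29.1 times in P30 and 6.91 times in CEBPA.

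IREB2, which encodes iron regulatory protein 2, had an FPKM of 20.2 in CTR, 23.1 in P30 and 20.2 in CEBPA. ACO1, which encodes iron regulatory protein 1, also the cytosolic aconitase, had an FPKM of 18.98 in CTR, 16.7 in P30 and 19.2 in CEBPA. Neither gene differed between CEBPA and CTR by more than 0.02 on the log2 scale. The ACO1 to IREB2 ratio was 0.939 in CTR, 0.725 in P30 and 0.952 in CEBPA.

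**Figure D2:**
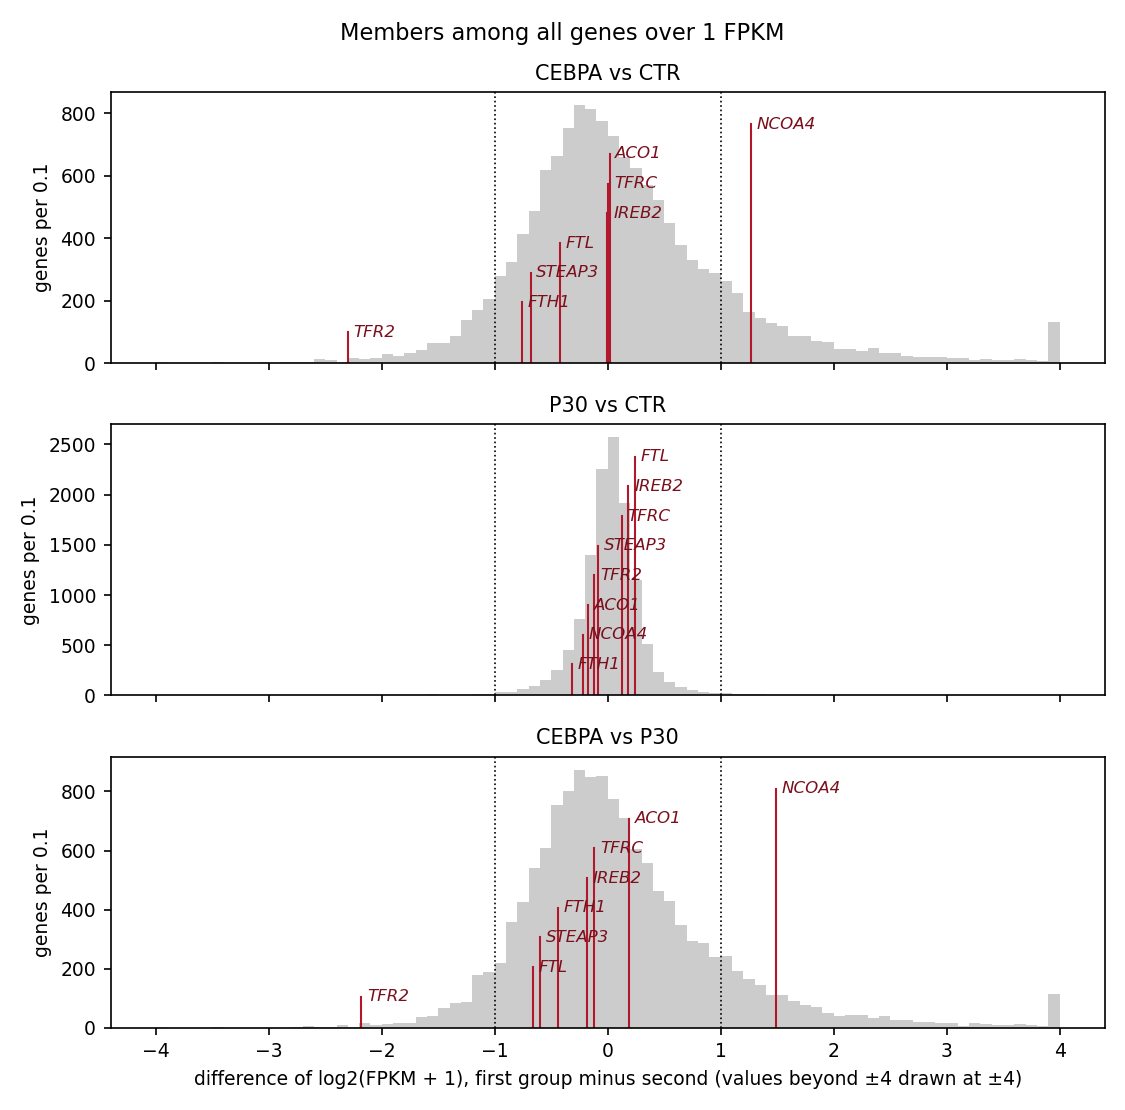
Differences of log2(FPKM + 1) for each pair of groups, with all genes over 1 FPKM as gray histograms (genes per bin of 0.1) and the 8 genes as red lines whose heights only separate the names. Dotted lines mark 2-fold. TFR2 at -2.30 and NCOA4 at 1.27 lay outside them in CEBPA vs CTR, and none of the 8 did so in P30 vs CTR.

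The p30 isoform was then set against the empty vector. In P30 vs CTR, 0 of the 8 genes differed at least 2-fold, where 1.02% of 12395 genes tested were at least 2-fold higher and 0.613% lower. The median log2 change was -0.10 over the 8 genes and 0.02 over all genes tested, whose scaled median absolute deviation was 0.20. The changes ran from -0.32 for FTH1 to 0.24 for FTL, which 17.1% and 27.4% of all genes tested equalled or exceeded in size. The ferritin chains thus held the opposite ends of the 8 genes in this pair. TFR2, with -0.12, and TFRC, with 0.12, differed by less than the spread over all genes.

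The CEBPA and P30 lines were compared with each other in CEBPA vs P30, which shares the CEBPA and P30 values with the comparisons above. The legend of the paper's western blot names both C/EBPα isoforms for the CEBPA line after doxycycline. This pair may therefore not set 1 isoform alone against the other, and protein amounts were not analysed here. The log2 change was -2.18 for TFR2 and 1.49 for NCOA4, and these were the only ones of the 8 genes past 2-fold. Among 13569 genes tested, 13.1% were at least 2-fold higher and 5.79% lower. TFR2 had the 35th most negative change. The change was -0.66 for FTL, -0.60 for STEAP3 and -0.44 for FTH1, sizes that 34.9%, 39.0% and 51.8% of all genes tested reached. The median was -0.31 over the 8 genes and -0.04 over all genes.

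**Figure D3:**
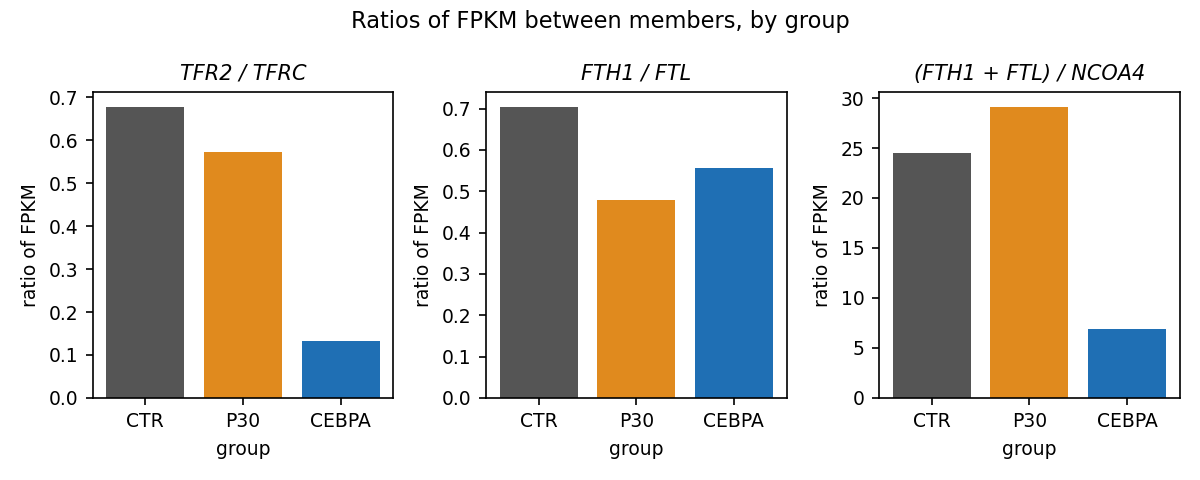
Ratios of FPKM between members in CTR, P30 and CEBPA, as bars from 0 without error. TFR2 relative to TFRC was lowest in CEBPA at 0.131, FTH1 relative to FTL was highest in CTR at 0.705, and ferritin relative to NCOA4 was lowest in CEBPA at 6.91.

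The other genes of iron handling were taken from 6 lists with 67 genes, of which 58 had a row and 56 exceeded 1 FPKM in each comparison. In CEBPA vs CTR, 5 of the 56 were at least 2-fold higher and 4 lower, with a median log2 change of -0.10. In P30 vs CTR, 0 were higher and 2 lower, with a median of 0.01. In CEBPA vs P30, 5 were higher and 3 lower, with a median of -0.08. These counts stand beside the shares of all genes given above.

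Of 10 import genes over 1 FPKM in CEBPA vs CTR, 2 were at least 2-fold higher and 2 lower. LCN2, which binds iron-loaded siderophores and is stored in neutrophil granules, had an FPKM of 3.94 in CTR, 3.16 in P30 and 264 in CEBPA. HFE, a binding partner of both transferrin receptors, had an FPKM of 0.997 in CTR, 2.47 in P30 and 12.5 in CEBPA. TF, the gene of transferrin, was lower in P30 cells and in CEBPA cells than in controls, with an FPKM of 9.15 in CTR, 2.35 in P30 and 3.29 in CEBPA. The log2 change of TF in P30 vs CTR, -1.60, was the 15th most negative of 12395 genes. HFE2, the gene of hemojuvelin, had 2.10, 0.969 and 0.467 FPKM in the same order. SLC11A2, the endosomal iron transporter that follows STEAP3 in the pathway and is named after its values were seen, had 34.0, 34.2 and 26.7 FPKM.

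Of 6 export genes, FLVCR2, a heme and choline transporter, was the only one past 2-fold in CEBPA vs CTR, with an FPKM of 24.05 in CTR, 22.9 in P30 and 82.1 in CEBPA. SLC40A1, the iron exporter ferroportin, had an FPKM of 25.3 in CTR, 39.2 in P30 and 45.4 in CEBPA. HEPH, a ferroxidase that works with ferroportin, had 47.0, 51.2 and 25.4 FPKM. CP, the ferroxidase ceruloplasmin, had 0.639, 0.826 and 1.90 FPKM. HAMP, the gene of hepcidin, was also on this list and is named after its values were seen, with 1.10, 3.02 and 0.809 FPKM. Its log2 change of 0.94 was the largest of the list in P30 vs CTR. Relative to CTR, the median log2 change over the list was 0.48 in CEBPA and 0.18 in P30. The list mixes genes of different roles, so this median is no measure of iron export.

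Of 7 genes of cytosolic iron chaperones and of the control of iron regulatory proteins, 0 passed 2-fold in either of the comparisons with CTR. FBXL5, the iron-sensing ubiquitin ligase subunit that marks the IREB2 protein for degradation, had an FPKM of 21.2 in CTR, 24.4 in P30 and 40.7 in CEBPA, a log2 change of 0.91 in CEBPA vs CTR. HERC2, a ubiquitin ligase that acts on FBXL5 and NCOA4 proteins, had 27.8, 24.3 and 19.7 FPKM. PCBP1, a chaperone that loads iron into ferritin, had an FPKM of 217 in CTR, 217 in P30 and 163 in CEBPA. GLRX3, a cytosolic iron-sulfur protein, had 67.8, 66.9 and 82.6 FPKM.

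Other transcripts known for an iron-responsive element did not share 1 direction. ALAS2, the erythroid enzyme of the first step of heme synthesis, had an FPKM of 149 in CTR, 44.7 in P30 and 20.9 in CEBPA. EPAS1, a hypoxia factor, had an FPKM of 7.51 in CTR, 12.05 in P30 and 11.3 in CEBPA. CDC14A had 12.7, 15.0 and 8.60 FPKM. The stem-loop search found a match in the 5′ UTR of ALAS2 and SLC40A1, and these are printed to set beside those of ferritin.
ALAS2, chrX:55057380-55057396, minus strand: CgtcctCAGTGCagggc
SLC40A1, chr2:190445387-190445415, minus strand: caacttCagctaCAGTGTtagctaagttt

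These elements share the loop with ferritin but not its stem, and the levels of their mRNAs went in different directions. ALAS2 and both ferritin chains were lower in CEBPA than in CTR, whereas SLC40A1 was higher. Of the 28 genes with a 5′ UTR match, 25 exceeded 1 FPKM in CTR or CEBPA, 2 were at least 2-fold higher and 2 lower, and their median log2 change was 0.03. Of the 113 with a 3′ UTR match, 70 exceeded 1 FPKM, 10 were higher and 6 lower, with a median of 0.13. Over all genes tested, 14.0% were higher and 6.92% lower, with a median of -0.01.

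**Figure D4:**
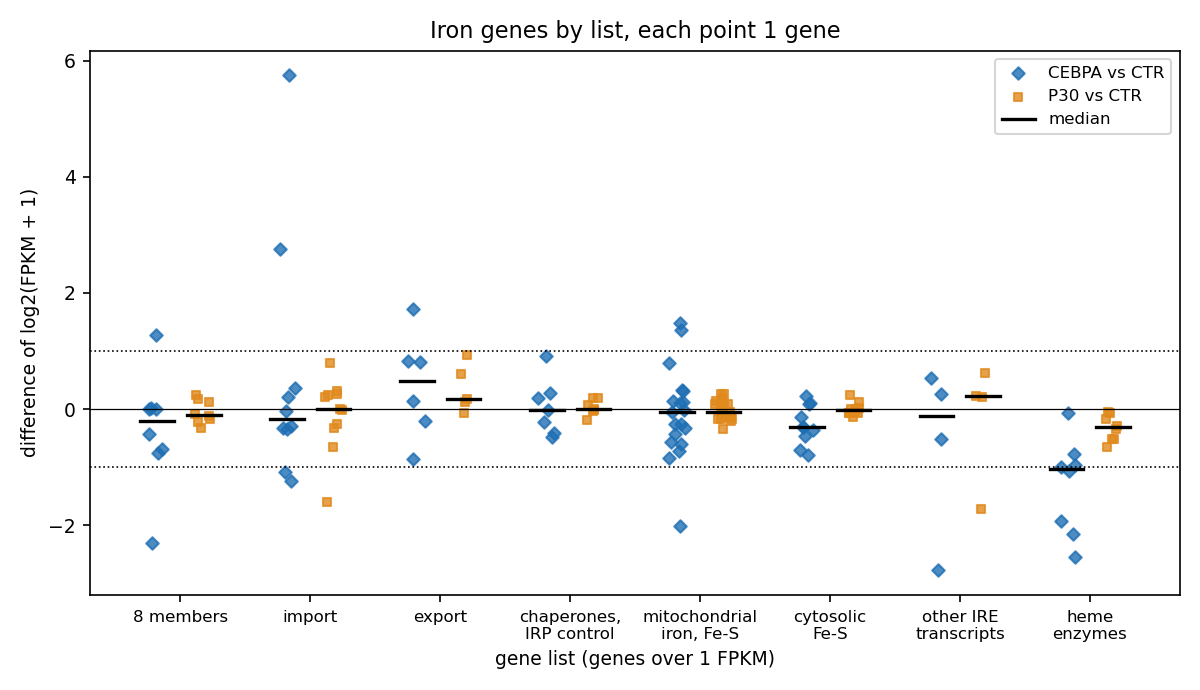
Differences of log2(FPKM + 1) in CEBPA vs CTR (blue diamonds) and P30 vs CTR (orange squares) for the 8 members and 7 lists, 1 point per gene over 1 FPKM, with the median as a black bar and dotted lines at 2-fold. Both comparisons use the CTR values. The medians of the members were -0.21 and -0.10, and those of the heme list -1.03 and -0.31.

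The genes of heme synthesis, the main use of iron in erythroid cells, were the nearest comparison. The list held 10 genes of heme enzymes, heme oxygenases and a heme transporter, of which 8 had a row. In CEBPA vs CTR all 8 were lower, 4 of them at least 2-fold, where 6.92% of all genes tested were. At any size, about as many of all genes were lower as higher, since IREB2, at -0.0021, had the 6884th most negative change of 13673. HMOX2, a heme oxygenase, was counted as lower with a log2 change of only -0.07, which 91.9% of all genes tested reached in size. The median log2 change was -1.03, beside -0.21 for the uptake and ferritin genes and -0.01 for all genes. PPOX had an FPKM of 205 in CTR, 143 in P30 and 34.3 in CEBPA, UROS had 92.9, 58.5 and 20.1, and UROD had 684, 479 and 180. In P30 vs CTR all 8 were lower, 0 at least 2-fold, with a median of -0.31 beside 0.02 for all genes. Somewhat fewer of all genes were lower than higher in this pair, where PCBP1, at -0.0025, had the 5514th most negative change of 12395. HMOX2, at -0.07, and SLC48A1, at -0.05, were near 0 there, and 71.8% and 78.2% of all genes tested changed as much. Among the uptake and ferritin genes, only TFR2, at -2.30, lay below the heme median in CEBPA vs CTR. The difference between the lists was not tested.

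Likeness of pattern was measured as the Euclidean distance between log2(FPKM + 1) levels centred on their own mean, over only 3 groups and among 13006 genes, for the 3 members with the widest range. Nearest to TFR2 were ANO9 (distance 0.03), GYPE (0.07) and PTK7 (0.08). GYPE had an FPKM of 97.9 in CTR, 86.3 in P30 and 17.7 in CEBPA, uncertain because it has near-identical paralogs. Only 6 genes lay within 0.1 of TFR2. Nearest to NCOA4 were C9orf47, YTHDF3-AS1 and OVGP1, none above 7.43 FPKM, with 30 genes within 0.1. Nearest to FTH1 were AC004466.1, NDUFA8, a subunit of respiratory complex I, and CTD-2589H19.6, with 186 genes within 0.1. With 3 points per gene, such a likeness is a description of levels only.

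On GRCh37, in a later Gencode release than the authors used, NCOA4 lies on chromosome 10 from 51565199 to 51590734 on the plus strand and TFR2 on chromosome 7 from 100218039 to 100240402 on the minus strand. FTH1 spans 61727190 to 61735106 on the minus strand of chromosome 11, and FTL spans 49468566 to 49470136 on the plus strand of chromosome 19. RefSeq promoter windows of 300 bases, 250 before and 50 after a start (GRCh38.p14), were at hand for 6 members with 8 windows, and not for TFR2 and FTH1, which were not searched. TTGCNNAA, a form of the C/EBP motif, was searched on both strands and was in 0 of the 8 windows and in 10.5% of all 35116 windows. The GATA motif AGATAA (10.3% of all windows) and the E-box CACGTG (7.26%) were likewise in 0 of the 8. This says only that these letters are not in the windows. The antioxidant response motif TGACNNNGC was in 13.3% of all windows and in 1 of the 8, after the downstream start of NCOA4, with the motif in capitals.
NCOA4, chr10:46019958-46019986, minus strand, GRCh38.p14: ctctgaaagcTGACAGTGCtctaactgcg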

How the data were processed

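The RNA-seq comprised 6 K562 samples, with 2 replicates for CTR, CEBPA and P30 each. The authors used TopHat, at its default settings, to align stranded paired-end reads to hg19, Cufflinks with Gencode to assemble them, and deposited FPKM estimated with Cuffdiff, 1 value per gene and group with the replicates pooled. The submitters' processing notes name CASAVA 1.4 and TopHat2 2.0. The rule that selected rows, Cuffdiff's library normalization and its strand setting are not given in the sources used here, so reads of overlapping antisense genes may not have been told apart. The tables hold no depth per sample, for which the study's text gives only a range over samples in read pairs, and no count test could be run.

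Each row was taken as 1 gene. For symbols that occur once, no value of a group differed between the tables. Changes are differences of log2(FPKM + 1) among genes above 1 FPKM in either group of a pair, and a 2-fold difference is at least 1 on this scale. Spread is the median absolute deviation times 1.4826. Shares of all genes include both directions unless stated.

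The 8 genes, the lists of other iron genes, heme enzymes and markers, and the rule to name up to 4 genes per list with the largest change were chosen with earlier results of these data known. Genes of the lists without values were not analysed here. 1 erythroid marker is not reported here. Alternatives were a pseudocount of 0.1, centring on the median, upper-quartile scaling, summed symbols, no filter, a minimum of 5 FPKM, genes present in all 3 tables, ferritin pseudogenes added, and FPKM + 1 for ratios. The computation was tested on simulated data. Python 3.11.15, numpy 2.4.6, pandas 2.3.3 and matplotlib 3.10.9 were used.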

Additional observations from a re-analysis of the deposited data

How the results depend on the processing

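No paired analysis was possible because each group has only 1 deposited value, pooled over its replicates, so that neither the replicate block nor leaving out a replicate could be run. Of 270 recomputed values for 42 results, 270 stayed within the working limits, which were 0.20 on the log2 scale (the spread of P30 vs CTR) and 1.5 times for counts, and 0 moved. These limits are no replicate error. Many of the 270 values could not move. Each member has 1 row in every table and passes every filter used. Summed symbols, no filter, a minimum of 5 FPKM and genes present in all 3 tables therefore could not alter the members' log2 changes. Medians and counts of the members were fixed under these alternatives too. Summed symbols and genes present in all 3 tables likewise could not alter the TFR2 to TFRC and FTH1 to FTL ratios. TFR2 in CEBPA vs CTR ranged from -2.36 to -2.28 and NCOA4 from 1.27 to 1.29. FTH1 in P30 vs CTR ranged from -0.35 to -0.32 and FTL from 0.21 to 0.24. The sign changed for IREB2 in CEBPA vs CTR, which ranged from -0.0022 to 0.0166, and for the median of the other iron genes in P30 vs CTR, from -0.0191 to 0.0154. TFRC and ACO1 in CEBPA vs CTR stayed above 0 under every alternative run. The number of members past 2-fold was 2, 0 and 2 in CEBPA vs CTR, P30 vs CTR and CEBPA vs P30 under every alternative run.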

Other observations

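The assembly of iron-sulfur clusters, the other large use of cellular iron, has not been described above. Of 19 mitochondrial genes over 1 FPKM, 2 were at least 2-fold higher and 1 lower in CEBPA vs CTR, with a median log2 change of -0.06 beside -0.01 for all genes. FDXR, the reductase that passes electrons to ferredoxin, had an FPKM of 57.5 in CTR, 44.9 in P30 and 13.5 in CEBPA, the 92nd most negative change of 13673 genes. Its electron acceptor FDX1 went the other way, with 7.04, 8.60 and 21.6 FPKM. LYRM4, a small subunit of the cysteine desulfurase complex, had an FPKM of 49.1 in CTR, 43.8 in P30 and 128 in CEBPA. BOLA3, which acts late in cluster delivery, had 96.0, 87.4 and 53.2 FPKM. In P30 vs CTR none of the 19 passed 2-fold, and the changes ran from -0.35 to 0.26.

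Of 10 genes of cytosolic iron-sulfur assembly, 7 were lower and 3 higher in CEBPA than in CTR, 0 at least 2-fold. Over all genes tested about as many were lower as higher, since IREB2, at -0.0021, had the 6884th most negative change of 13673. Their median log2 change was -0.31, beside -0.01 for all genes, and the lowest was -0.79. MMS19, which targets clusters to DNA repair enzymes, had an FPKM of 34.3 in CTR, 32.7 in P30 and 19.4 in CEBPA. NUBP2, a scaffold protein, had 50.7, 51.4 and 30.9 FPKM. In P30 vs CTR the changes of these 10 genes ran from -0.13 to 0.24.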
